A study of Homo sapiens with 9 samples.

Results

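The comparison set MBD-VP16 directly against Aire in HEK293 cells, a human embryonic kidney cell line, using the 3 arrays of cells given an MBD-VP16 plasmid and the 3 arrays of cells given an Aire plasmid. These 6 arrays were chosen by their labels from the 9 of the study. The other 3, from cells given the empty vector PCMV, took no part in the contrast and are used only to place the vector level beside a difference. All cultures were transiently transfected with a Mirus reagent and kept in complete DMEM for 72 h before total RNA was extracted, amplified and labelled with biotin. The labels call the arrays of a group biological replicates but do not say how the cultures were kept apart, so the p-values below measure the spread between these arrays. The labels give neither the species or extent of the Aire construct nor the protein from which the MBD was taken. Every one of the 25679 transcript clusters with values was tested. A transcript cluster is a set of probes along 1 transcribed locus, and its value here is a log2 signal, so a difference of 1 is 2-fold.

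AIRE, the autoimmune regulator, is a nuclear protein best known from the medullary epithelium of the thymus, where it raises many genes that are otherwise restricted to other tissues, so that developing T cells meet those self proteins. A methyl-CpG-binding domain (MBD) is a protein fold that recognises methylated CG dinucleotides, and the natural proteins that carry it mostly recruit repressors. VP16 is a strong viral activation domain, so MBD-VP16 joins a reader of methylated DNA to an activator. The direct contrast asks which genes differ in level between these regulators. The vector level is set beside a difference because both regulators can move a gene.

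Genes that passed the test between the 2 sets of cells differed almost wholly in one direction. Of 17769 genes measured by a cluster of their own, 242 (1.36%) passed the threshold, an adjusted p under 0.05 in limma's test with Benjamini-Hochberg adjustment over all clusters. Of these, 233 genes (1.31% of all) were higher with MBD-VP16 and 9 (0.0507%) were lower. All 74 genes that differed by at least 2-fold were higher with MBD-VP16, by up to 4.39 on the log2 scale, whereas the largest difference in the other direction was -0.68. The median difference over all genes was -0.02. At an unadjusted p under 0.05 the balance was closer, with 1208 genes higher and 1067 lower. Arrays of the 2 groups did not overlap for 1588 genes higher and 1936 lower with MBD-VP16. With any 1 of the 6 arrays left out, between 136 genes (without Aire replicate 2) and 154 (without Aire replicate 1) passed. RNA came from whole cultures, so a change in the number of responding cells and a change in RNA per cell cannot be told apart.

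**Figure D1:**
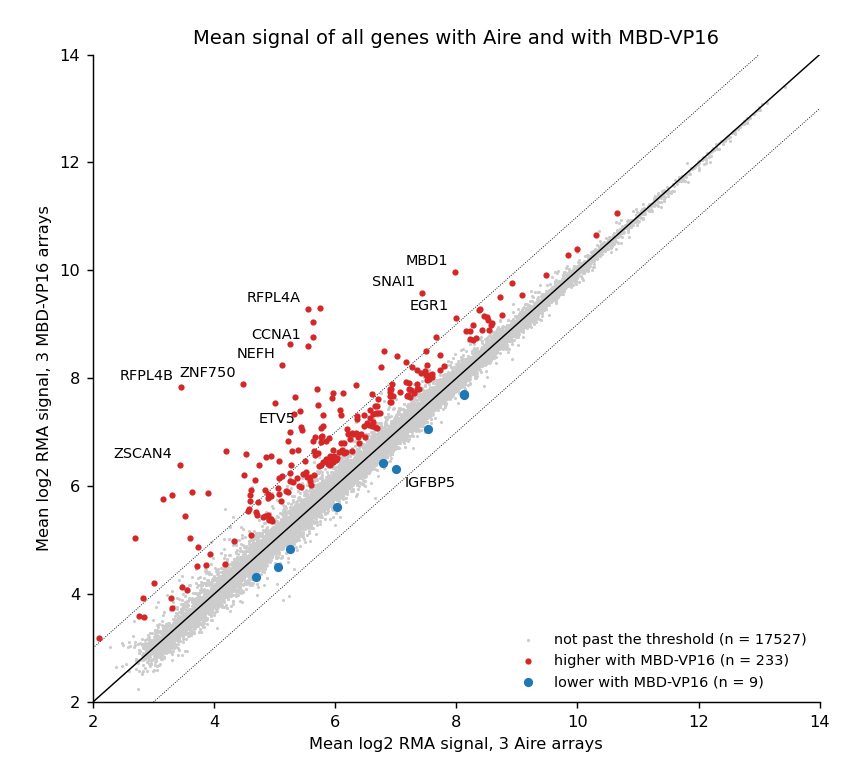
Mean log2 RMA signal of each of 17769 genes on the 3 Aire arrays (x axis) and the 3 MBD-VP16 arrays (y axis). The solid line marks equal signal and the dotted lines a 2-fold difference. The 233 red points lie above the solid line and reach far past the 2-fold line, and the 9 blue points lie close below it.

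The arrays of a group resembled each other more than those of the other group, with Pearson correlations of 0.992 to 0.993 within groups and 0.983 to 0.985 between them across clusters. Array medians lay between 6.18 and 6.23. Of 6 genes taken as markers of HEK293 cells, VIM had mean signals of 10.72 and 10.50 with Aire and MBD-VP16, KRT8 of 9.98 and 10.03, and CDH2 of 9.25 and 9.19. PAX2 (6.22 and 6.25) and LHX1 (6.11 and 6.36) lay near the array medians, and the cluster that carries the symbol KRT18 lies on another chromosome than that gene and is not read here. Markers of leukocytes (3 measured), endothelium (3), fibroblasts (2) and differentiated kidney (5) did not pass the test in either direction. The AIRE cluster read 6.66, 6.57 and 6.76 on the Aire arrays, 6.39, 6.67 and 6.52 on the MBD-VP16 arrays and 6.32, 6.52 and 6.46 on the vector arrays. The Aire and MBD-VP16 arrays overlapped (log2 difference -0.14 ± 0.09 SE, adjusted p = 0.60), so these probes do not check the Aire label, and every direction below rests on the labels.

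MBD1, a methyl-CpG-binding protein, was the 1 gene of 36 methyl-CpG readers and corepressors that passed, beside 1.36% of all genes. It read 8.24, 8.0 and 7.72 with Aire, 8.49, 7.55 and 8.52 with vector, and 10.12, 9.91 and 9.86 with MBD-VP16. All 3 MBD-VP16 arrays stood clear of the other 6, and the difference from Aire was 1.98 ± 0.14 (SE, adjusted p = 0.000775). Whether the MBD1 probes read the plasmid or the cell's own gene was not tested.

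The genes furthest apart included targets of DUX4, a homeobox factor of the cleavage-stage embryo. Of 14 clusters that carry a symbol starting with DUX, only 1 passed, that of DUXA (log2 difference 2.52), and their median difference was -0.03. Of the 14, 13 are marked as open to cross-hybridisation, so their probes can read several copies. DUX4 binds a motif that is searched here as TAA, any 3 bases and then AATCA, on both strands. RefSeq promoter windows (GRCh38.p14, 250 bases before to 50 after each annotated start) were at hand for 13450 of the 17769 genes, and 121 of these (0.90%) held the motif. It was in the windows of 7 of the 45 genes that were at least 2-fold higher with MBD-VP16 (15.6%) and of 0 of the 114 genes that were higher by less. The 7 were TRIM48, TRIM51, H3Y2, RFPL4A, ZSCAN5B, GDF3 and NR5A2, of which TRIM51 and GDF3 lost their calls in 5 and 4 of the 6 fits without 1 array (adjusted p up to 0.163 and 0.097). Symbols found only on clusters shared by several genes held it in 15 of 69 cases (21.7%) where the cluster was higher with MBD-VP16. H3Y1, 5 MBD3L genes and 5 PRR20 genes were among them, examples chosen after their values were seen. Copies of a family entered as separate cases, and the share over all such symbols was not counted. A match is a description of the letters and not evidence of binding. A stretch of up to 131 bases around the match, all of it before the annotated start, is printed for 6 of these genes because the pattern recurs at loci on 4 chromosomes, and the capitals mark the match, which is the reverse complement in RFPL4A and GDF3.
TRIM48, chr11:55261949-55262079, plus strand: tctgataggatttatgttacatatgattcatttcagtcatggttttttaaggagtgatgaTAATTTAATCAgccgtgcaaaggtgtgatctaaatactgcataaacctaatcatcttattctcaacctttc
TRIM51, chr11:55883047-55883148, plus strand: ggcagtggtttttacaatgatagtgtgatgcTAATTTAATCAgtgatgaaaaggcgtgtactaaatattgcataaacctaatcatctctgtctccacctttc
H3Y2, chr5:17492077-17492187, minus strand: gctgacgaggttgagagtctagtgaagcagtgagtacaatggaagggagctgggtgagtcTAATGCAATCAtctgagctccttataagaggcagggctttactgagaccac
RFPL4A, chr19:55758968-55759096, plus strand: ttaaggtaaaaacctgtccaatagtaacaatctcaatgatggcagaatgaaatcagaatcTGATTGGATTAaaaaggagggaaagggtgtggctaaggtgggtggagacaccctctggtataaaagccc
ZSCAN5B, chr19:56197804-56197934, minus strand: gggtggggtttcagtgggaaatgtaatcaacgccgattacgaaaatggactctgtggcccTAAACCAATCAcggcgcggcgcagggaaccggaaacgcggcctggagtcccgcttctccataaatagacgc
GDF3, chr12:7695776-7695881, minus strand: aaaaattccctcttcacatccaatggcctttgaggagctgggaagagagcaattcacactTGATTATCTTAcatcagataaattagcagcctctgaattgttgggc

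CG dinucleotides, the sites that an MBD reads when they are methylated, were counted in the same windows. The median was 22.5 per 300-base window over all 13450 genes, 15.5 over the 45 genes at least 2-fold higher and 25 over the 114 that were higher by less. It was 5.0 over the 12 cleavage-stage genes with a window that were higher, 29.0 over the 11 HOX and other homeobox genes that were higher, and 33.0 over 9 genes that were lower with Aire alone. Windows poor and rich in CG were both found among the genes higher with MBD-VP16. The 250 bases before the start of 3 genes are printed to show that spread, with CG in capitals: RFPL4B and CCNA1, higher with MBD-VP16, and EGR1, lower with Aire. The RFPL4B stretch holds 5 CG, that of CCNA1 31 and that of EGR1 25, and the files used here give no methylation state for any of them.
RFPL4B, chr6:112347080-112347329, plus strand: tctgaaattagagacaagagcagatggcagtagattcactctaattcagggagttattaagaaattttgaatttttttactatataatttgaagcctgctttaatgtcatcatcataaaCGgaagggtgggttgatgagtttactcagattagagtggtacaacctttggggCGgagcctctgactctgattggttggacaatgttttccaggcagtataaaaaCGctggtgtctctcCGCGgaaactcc
CCNA1, chr13:36431705-36431954, plus strand: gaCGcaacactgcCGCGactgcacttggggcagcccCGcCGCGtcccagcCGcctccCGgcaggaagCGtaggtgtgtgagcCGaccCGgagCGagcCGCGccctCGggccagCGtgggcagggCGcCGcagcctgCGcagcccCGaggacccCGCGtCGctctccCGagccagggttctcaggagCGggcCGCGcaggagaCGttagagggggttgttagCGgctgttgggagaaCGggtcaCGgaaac
EGR1, chr5:138465229-138465478, plus strand: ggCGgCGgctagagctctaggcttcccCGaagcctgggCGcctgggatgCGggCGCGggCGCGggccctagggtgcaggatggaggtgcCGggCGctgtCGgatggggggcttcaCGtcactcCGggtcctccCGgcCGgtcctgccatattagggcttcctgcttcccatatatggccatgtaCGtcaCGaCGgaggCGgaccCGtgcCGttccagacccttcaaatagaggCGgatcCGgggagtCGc

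Genes of the cleavage-stage embryo, most of them known DUX4 targets, had the largest median difference of the gene lists here. The lists were written with earlier results of these data known. Of 20 measured members of the cleavage-stage list, 15 were higher with MBD-VP16 and 0 lower, beside 1.31% of all genes higher. The median difference was 1.95 against -0.02 over all genes. Without 1 array the count was 14 or 15. RFPL4B, a ret finger protein-like gene of the early embryo, read 3.23, 3.59 and 3.53 with Aire and 7.83, 7.83 and 7.87 with MBD-VP16. The 2 groups lay far apart, and the Aire values were close to the vector values of 3.11, 2.93 and 3.27. The difference of 4.39 ± 0.10 (SE) was 21.0-fold (adjusted p = 4.22e-06), the largest of any gene. ZSCAN4, a zinc finger protein that marks cleavage-stage embryos, read 3.45, 3.03 and 3.83 with Aire and 6.37, 6.41 and 6.4 with MBD-VP16 (difference 2.96 ± 0.19, adjusted p = 0.000412). The spread was wide on the low arrays and under 0.1 on the high ones.

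Homeobox genes that act in the early embryo moved alongside. TPRX1 read 4.83, 5.60 and 5.32 with Aire and 8.50, 8.97 and 8.43 with MBD-VP16, a difference of 3.38 ± 0.23 (SE, adjusted p = 0.00051). DUXA was higher by 2.52 ± 0.17 and DPRX by 2.46 ± 0.24, from means of 3.31 and 4.20 on the Aire arrays. H3Y2, a primate-specific variant of histone H3, was higher by 2.31 ± 0.12, with values of 5.34, 5.12 and 5.57 against 7.67, 7.59 and 7.69. CCNA1, the cyclin of male germ cells, was higher by 3.05 ± 0.10, from 5.49, 5.56 and 5.61 to 8.78, 8.42 and 8.61. For each of these 5 genes the mean of the vector arrays lay within 0.4 of the Aire mean. TRIM48, a member of a primate gene expansion, was higher by 2.61 ± 0.19. The list's 5 members that did not pass were DPPA5 (0.22), KLF17 (0.40), RFPL2 (0.59), ZIM3 (0.05) and ZNF705A (0.60). TRIM51, at 1.62 ± 0.28 (adjusted p = 0.0474), was the weakest of those that passed.

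**Figure D2:**
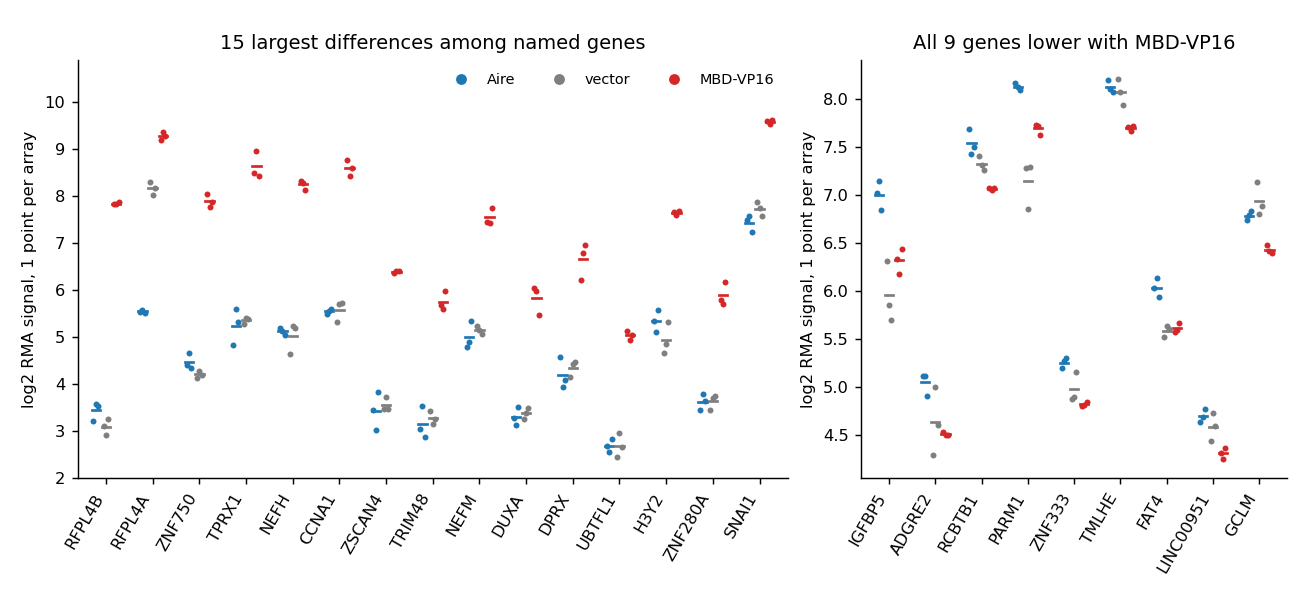
Log2 RMA signal on each array, with a bar at the mean of the 3 arrays, for the 15 named genes with the largest differences (left) and all 9 genes lower with MBD-VP16 (right). In the left panel the red MBD-VP16 points stand above the blue Aire points for every gene, and RFPL4A has its grey vector points far above the blue ones. In the right panel the differences are under 0.7.

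Outside that list, other single genes were among the furthest apart. ZNF750, a zinc finger regulator of epidermal differentiation, read 4.42, 4.67 and 4.34 with Aire and 8.04, 7.78 and 7.87 with MBD-VP16 (difference 3.42 ± 0.11, adjusted p = 1.05e-05). Of 50 measured epidermal differentiation genes 2 passed, ZNF750 and SFN (0.70 ± 0.08), beside 1.36% of all genes. The median difference of that list was -0.02. SNAI1, a repressor that drives epithelial to mesenchymal transition, read 7.49, 7.57 and 7.24 with Aire and 9.60, 9.54 and 9.61 with MBD-VP16, a difference of 2.15 ± 0.09 (adjusted p = 4.83e-05). SNAI1 started from a higher signal than the embryonic genes, and its vector values of 7.87, 7.75 and 7.57 were close to those with Aire. ZNF280A was higher by 2.26 ± 0.15 and UBTFL1 by 2.35 ± 0.09, and the UBTFL1 probes also match its copies.

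The neurofilament genes NEFH and NEFM were higher, while few other neuronal genes passed. NEFH, the heavy neurofilament subunit, read 5.20, 5.14 and 5.04 with Aire and 8.33, 8.29 and 8.13 with MBD-VP16 (difference 3.12 ± 0.08, adjusted p = 4.53e-06). NEFM, the medium subunit, read 4.79, 4.89 and 5.34 against 7.46, 7.44 and 7.75 (2.54 ± 0.16). INA, the related neuronal filament internexin alpha, was higher by 1.65 ± 0.12 and ELAVL3, a neuronal RNA-binding protein, by 1.05 ± 0.08. These were the 4 of 54 neuronal genes that passed, beside 1.36% of all genes, and the median of the list was -0.04. Each of the 4 kept its call without any 1 array.

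Some HOX genes, which set position along the body axis, and some other homeobox genes of development were higher. Of 37 HOX genes 10 were higher with MBD-VP16 and 0 lower, beside 1.31% of all genes higher, with a median of 0.30. The count was 6 to 9 without 1 array. HOXC10 read 6.88, 7.07 and 7.12 with Aire and 8.50, 8.34 and 8.38 with MBD-VP16, a difference of 1.38 ± 0.09 (adjusted p = 0.000371). HOXB6 (1.32 ± 0.13), HOXA11 (1.19 ± 0.08), HOXC11 (1.14 ± 0.09) and HOXA7 (0.93 ± 0.09) also kept their calls without any 1 array, as HOXC10 did. The HOX genes that passed came from the A, B and C clusters.

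Of 96 homeobox genes outside the HOX clusters, 10 were higher and 0 lower, beside 1.31% of all genes higher. The median was 0.14, and 6 to 10 were higher without 1 array. DLX5, which patterns the skull and limbs, read 6.86, 6.66 and 6.74 with Aire and 8.35, 8.21 and 8.08 with MBD-VP16 (1.46 ± 0.09, adjusted p = 0.000401). NKX2-2, of the ventral neural tube and pancreas, was higher by 1.33 ± 0.12. LHX2 (1.11 ± 0.10), HMX2 (1.06 ± 0.10) and MSX1 (1.01 ± 0.09), which pattern forebrain, inner ear and craniofacial tissue, were each about 2-fold higher. The arrays of the 2 groups did not overlap for any of these 5 genes, as was so for all 242 genes that passed and for 19.8% of all genes.

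Other gene lists tied to methylated promoters or to Aire held 0 to 3 members that passed, to be read beside the 1.31% of all genes that were higher. Of 38 germline genes whose promoters are methylated in somatic cells, 3 passed: BRDT, a testis bromodomain protein (1.20 ± 0.08), NLRP2 (0.64 ± 0.06) and TEX14 (0.64 ± 0.07). Of 25 cancer-testis antigen genes measured singly, TKTL1 alone passed (0.87 ± 0.09). Of 17 clustered protocadherins PCDHB16 (0.62 ± 0.10) and PCDHB7 (0.41 ± 0.07) passed, and both lost the call in at least 5 of the 6 fits without 1 array (adjusted p up to 0.142 and 0.178). Of 36 autoantigens of AIRE deficiency ATP4B alone passed, a subunit of the stomach's proton pump, by 0.61 ± 0.10, and lost the call in 5 of those fits (adjusted p up to 0.161). Of 39 genes for AIRE partner proteins only MBD1 passed, and of 17 DNA methylation writers and erasers 0 did in limma's test, with 1 higher and 1 lower at an unadjusted p under 0.05.

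**Figure D3:**
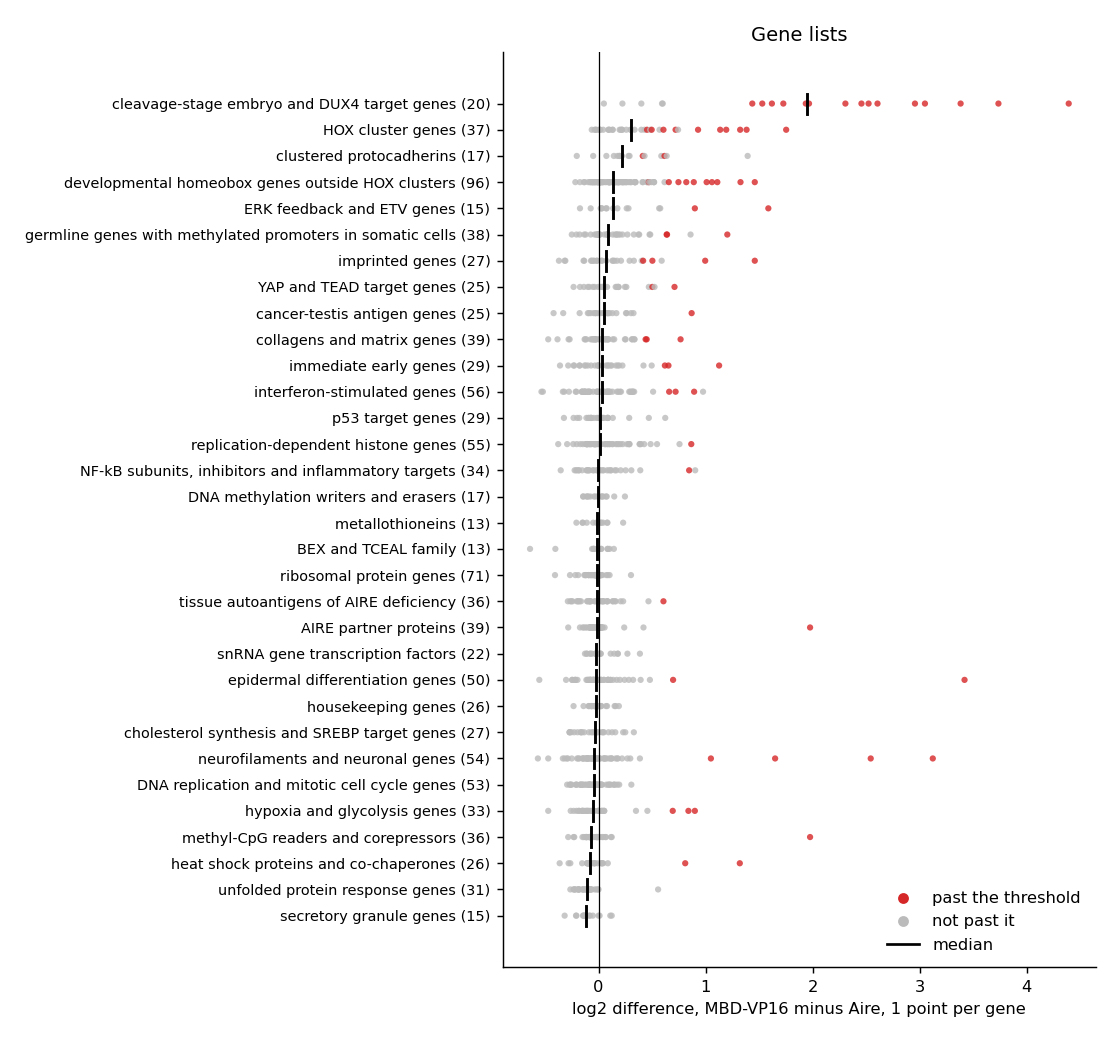
Log2 difference (MBD-VP16 minus Aire) of each gene on 32 lists, with the number measured in parentheses, red where the gene passed the threshold and a black bar at the list's median. The cleavage-stage list stands apart with a median of 1.95. On the other lists the medians lie between -0.12 and 0.30, and the red points are few.

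Multicopy families held the largest differences of all. Over all 25679 clusters 433 passed (1.69%), but among those shared by several genes 136 of 2535 did (5.36%), 132 of them higher with MBD-VP16 (5.21%). Clusters that the deposited table marks as open to cross-hybridisation passed in 177 of 2730 cases (6.48%). Probes of such clusters can read several copies, so the values belong to a family and not to 1 copy. Copies can also hold identical values, so that the 15 clusters of USP17L below are 8 distinct profiles, the 16 of the TRIM family 13 and the 9 of GAGE 7. Likewise the 28 clusters of PRAMEF are 21 distinct profiles, the 13 of FAM90A 9, the 6 of UBTFL 3 and the 5 of MBD3L 4. The families below were gathered by symbol after their values had been seen. A cluster of GAGE genes, X-linked cancer-testis antigens, read 5.45, 5.25 and 5.94 with Aire and 11.60, 11.74 and 11.72 with MBD-VP16. This was the largest difference on the arrays, 6.14 ± 0.17 or 70.5-fold (adjusted p = 7.37e-06), and the vector arrays read 5.0, 4.90 and 4.59. Of 9 GAGE clusters 8 were higher, by 4.55 to 6.14.

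The primate TRIM expansion around TRIM43, TRIM48, TRIM49, TRIM51, TRIM64 and TRIM77 was higher in 15 of 16 clusters. The TRIM64 clusters read 3.70, 2.99 and 3.55 with Aire and 9.32, 9.17 and 9.33 with MBD-VP16 (5.86 ± 0.18, 58.1-fold), and 2 such clusters hold identical values. With Aire, 7 of the 16 clusters were also higher with Aire than with vector, by up to 1.22, while over all clusters 1.58% were higher and 2.82% lower with Aire than with vector and 4.75% were higher with MBD-VP16. A TRIM43 cluster rose from a mean of 4.65 with vector to 5.87 with Aire and 10.17 with MBD-VP16. Both steps share the vector arrays and are given side by side.

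PRAMEF genes, relatives of the melanoma antigen PRAME on chromosome 1, were higher in 20 of 28 clusters, by 0.40 to 4.57. MBD3L genes, which are related in sequence to MBD2 and MBD3, were higher in 5 of 5 clusters, by 3.88 to 4.48, from Aire means of 4.81 to 5.11. FAM90A was higher in 13 of 13 clusters, USP17L, a family of deubiquitinating enzymes, in 15 of 15 by 2.38 to 2.67, and UBTFL in 6 of 6. The alpha-globin pair HBA1 and HBA2, which share their probes, was higher by 2.74 and embryonic HBZ by 2.04 on 1 of its 2 clusters, a call lost in 3 of the 6 fits without 1 array (adjusted p up to 0.0731). In limma's test 0 clusters passed among 13 of MAGEA, 8 of SSX, 28 of NPIP and 31 of DEFB. Of these clusters, 2 were higher and 3 lower at an unadjusted p under 0.05. The 8 of SSX count SSX2IP on chromosome 1, which is not an SSX gene and was gathered by its symbol. CT45A, another X-linked cancer-testis family, had 4 of 6 clusters past the threshold and reached 0.76.

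**Figure D4:**
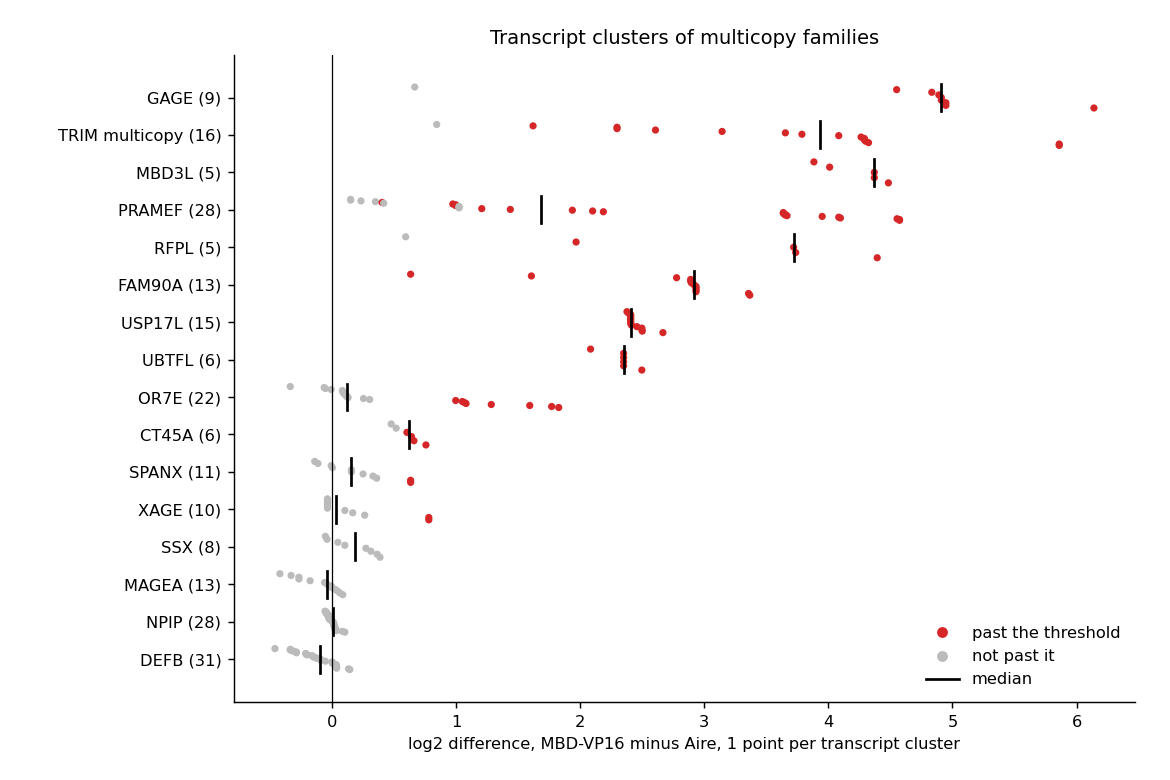
Log2 difference (MBD-VP16 minus Aire) of each transcript cluster of 16 multicopy families, with the number of clusters in parentheses, red where the cluster passed the threshold and a black bar at the family's median. GAGE, MBD3L, RFPL, FAM90A, USP17L and UBTFL clusters have medians between 2.35 and 4.91, and MAGEA, NPIP and DEFB clusters lie close to 0. The SSX clusters include that of SSX2IP, which is not an SSX gene.

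Most genes higher with MBD-VP16 stayed near the vector level with Aire. Of the 233, 150 (64.4%) had an Aire mean within 0.25 of the vector mean and passed the test against vector with MBD-VP16. Their median difference between the regulators was 0.76, and 52 of them differed by at least 2-fold. The fit against vector over all 9 arrays called 4.72% of genes higher and 6.18% lower with MBD-VP16. TPRX1, NEFH, CCNA1, ZSCAN4 and TRIM48 headed this group, with Aire minus vector values of -0.11, 0.10, -0.03, -0.12 and -0.14. A value within 0.25 of vector does not show that Aire had no effect. Aire against vector called 1.72% of all genes higher and 3.39% lower. The share of all genes with an Aire mean within 0.25 of vector was not counted, so the 64.4% has no share over all genes beside it. Of the 9 genes that passed the direct contrast as lower with MBD-VP16, 2 were near vector with Aire and lower than vector with MBD-VP16. They were GCLM, which makes glutathione (-0.35 ± 0.06), and TMLHE, of carnitine synthesis (-0.42 ± 0.06).

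Few of the genes that passed the direct contrast were changed by Aire and near vector with MBD-VP16. The same was not counted for genes that did not pass it. Aire against vector alone called 1.72% of genes higher and 3.39% lower, and 11 genes also passed the direct contrast while lying within 0.25 of vector with MBD-VP16. Of these, 10 were lower with Aire. With MBD-VP16 near vector this direction largely follows the direct contrast, where 233 of the 242 genes that passed were higher with MBD-VP16. ETV5, an ETS transcription factor downstream of ERK signalling, read 5.71, 5.15 and 5.52 with Aire, 7.15, 7.04 and 6.39 with vector, and 7.17, 6.91 and 7.06 with MBD-VP16. Aire lay below both other groups, with a difference of 1.59 ± 0.15 for MBD-VP16 minus Aire (adjusted p = 0.00332) and of -1.40 ± 0.21 for Aire minus vector (adjusted p = 0.0109). EGR1, an immediate early transcription factor, read 8.10, 7.93 and 7.96 with Aire, 8.96, 9.02 and 8.96 with vector, and 9.13, 9.15 and 9.09 with MBD-VP16. Its arrays were tight in every group, and the direct difference was 1.13 ± 0.07 (adjusted p = 0.000315).

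IL32, a pro-inflammatory cytokine, read 7.31, 7.47 and 7.28 with Aire, 7.84, 7.98 and 8.07 with vector, and 8.16, 8.14 and 8.17 with MBD-VP16 (difference between regulators 0.80 ± 0.07, adjusted p = 0.00217). ETV5, EGR1 and IL32 kept the call without any 1 array. ZFP36, which destabilises AU-rich mRNA (0.65 ± 0.08), lost it without MBD-VP16 replicate 2 or 3 (adjusted p up to 0.0543). The other 6 lower with Aire were CIART, a repressor of the circadian clock, ACTN2, CNN2 and COTL1, which bind actin, NDUFAF1, an assembly factor of respiratory complex I, and ENTR1. These 6 differed by 0.42 to 0.70 and lost the call in 5 or 6 of the 6 fits without 1 array (adjusted p up to 0.158). Of the genes that passed the direct contrast, only FAT4, a giant cadherin, was higher with Aire and near vector with MBD-VP16. It read 6.03, 6.14 and 5.94 with Aire against 5.58, 5.60 and 5.67 with MBD-VP16. FAT4 lost the call without any 1 array (-0.42 ± 0.07, adjusted p up to 0.158).

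The genes around ETV5 and EGR1 differed in part. Of 29 immediate early genes EGR1, ZFP36 and IER3 (0.62 ± 0.09) passed, beside 1.36% of all genes, and the median was 0.03. Of 15 ERK feedback and ETV genes ETV5 and SPRY4 (0.90 ± 0.12) passed, with a median of 0.14. For SPRY4, an inhibitor of the pathway, the 9-array fit placed Aire at -0.08 and MBD-VP16 at 0.82 from vector. IER3 and SPRY4 lost the call in 4 of the 6 fits without 1 array (adjusted p up to 0.0923 and 0.0812).

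Of the 242 genes that passed the direct contrast, 25 had their vector arrays between those of the regulators. MBD-VP16 was on top in 23 of these 25, beside 233 of all 242 that passed. RFPL4A was far the widest of them. It read 5.54, 5.59 and 5.52 with Aire, 8.31, 8.02 and 8.18 with vector, and 9.20, 9.37 and 9.29 with MBD-VP16. All 3 groups were clear of each other, with an Aire minus vector difference of -2.62 ± 0.09 (adjusted p = 3.24e-06) and an MBD-VP16 minus vector difference of 1.12 ± 0.09 (adjusted p = 8.23e-05). The difference between the regulators was 3.74 ± 0.07, or 13.3-fold. A second RFPL4A cluster gave 3.72, and both are marked as open to cross-hybridisation, so signal from near copies cannot be told apart. RFPL4B, on another chromosome, lay at 0.35 ± 0.11 from vector with Aire and did not pass.

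Smaller opposed steps were seen for CHKA, choline kinase alpha, at -0.44 with Aire and 0.41 with MBD-VP16 against vector, and for SLC2A3, a glucose transporter, at -0.39 and 0.45. Each of these 4 steps passed in the 9-array fit. HSPA1L lay in the same order, with steps of -0.41 with Aire and 0.40 with MBD-VP16, neither of which passed. RCBTB1 and ZNF333 lay in the opposite order, with Aire highest, and none of their steps from vector passed.

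**Figure D5:**
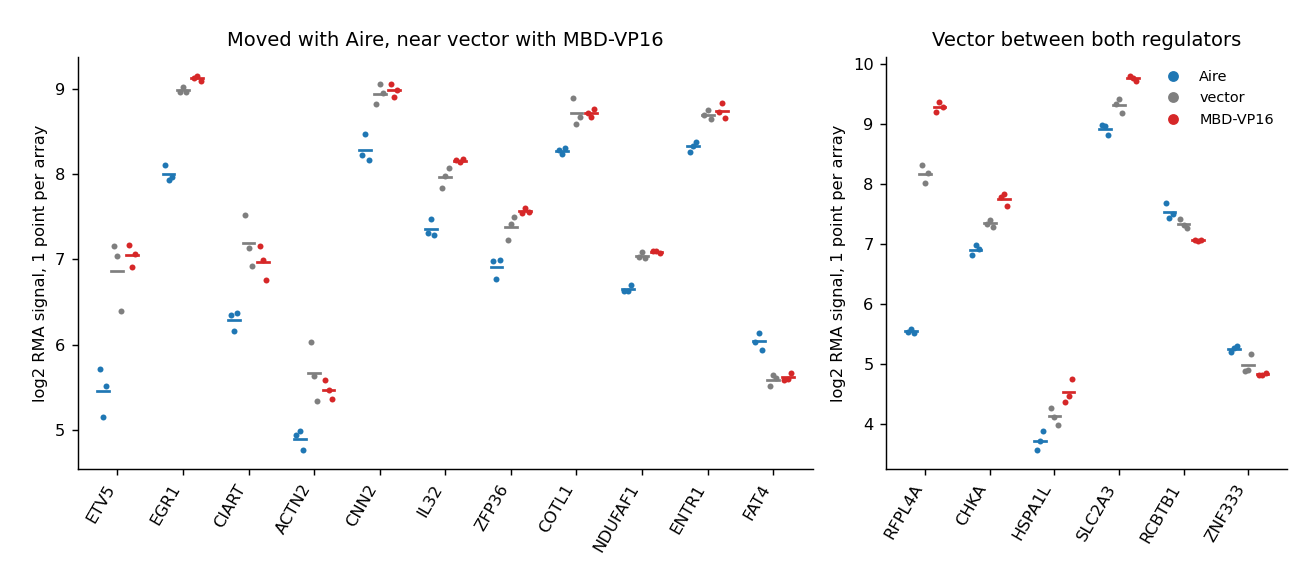
Log2 RMA signal on each array, with a bar at the mean of the 3 arrays, for 11 genes that differed from vector with Aire and stayed within 0.25 of it with MBD-VP16 (left) and 6 named genes whose vector arrays lay between both regulators (right). In the left panel the grey and red points lie together and the blue points lie below them, except for FAT4. RFPL4A in the right panel has its 3 groups far apart.

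The 9 genes lower with MBD-VP16 than with Aire were close calls. IGFBP5, which binds insulin-like growth factors, had the largest difference, at 7.02, 7.15 and 6.84 with Aire and 6.34, 6.18 and 6.44 with MBD-VP16 (-0.68 ± 0.11, adjusted p = 0.0326). The groups did not overlap, and the vector arrays at 6.31, 5.86 and 5.70 overlapped with MBD-VP16 alone. IGFBP5 rose with Aire against vector (1.05 ± 0.16, adjusted p = 0.011) and did not pass with MBD-VP16 (0.36 ± 0.16, adjusted p = 0.19). PARM1, a mucin-like membrane protein, was higher than vector with each regulator, by 0.99 with Aire and 0.55 with MBD-VP16, and differed between them by -0.44 ± 0.06. ADGRE2, an adhesion receptor of myeloid cells (-0.54 ± 0.08), RCBTB1 (-0.48 ± 0.08), ZNF333 (-0.43 ± 0.06), TMLHE, FAT4, LINC00951 (-0.39 ± 0.07) and GCLM made up the rest. All 9 lost the call in 5 or 6 of the 6 fits without 1 array, with adjusted p up to 0.16.

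Among clusters shared by several genes, 4 were lower with MBD-VP16: 2 for the FAM72 genes (-0.42 and -0.43) and 2 that hold a small nucleolar RNA with its host transcript. They lost the call in at least 5 of the 6 fits without 1 array (adjusted p up to 0.119). Of 4461 clusters with no symbol 16 passed (0.359%), 12 higher and 4 lower. The largest lay at chr2:210673528-210674304 in the deposited table (genome build not given in the sources used here). It read 4.91, 5.32 and 5.63 with Aire and 9.82, 9.90 and 9.82 with MBD-VP16, a difference of 4.56 ± 0.17 (adjusted p = 2.15e-05). The vector arrays read 4.72, 5.16 and 5.19, close to the Aire arrays.

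Some targets fell with both regulators and still differed between them. ANKRD1, a target of the growth coactivator YAP, read 8.15, 8.22 and 8.29 with Aire, 8.63, 8.77 and 8.77 with MBD-VP16 and 10.76, 10.85 and 10.84 with vector. CCN2, a matricellular YAP target, read 7.59, 7.93 and 7.65, 8.40, 8.43 and 8.47, and 9.66, 9.55 and 9.50 in the same order. Both were lowest with Aire, with differences between the regulators of 0.50 ± 0.07 (adjusted p = 0.022) and 0.71 ± 0.10 (adjusted p = 0.0204). Both lost the call in 5 of the 6 fits without 1 array (adjusted p up to 0.0983 and 0.0915). They were the 2 of 25 YAP and TEAD targets that passed, beside 1.36% of all genes.

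The lists of stress, growth and housekeeping genes had 0 to 4 members each that passed, all higher with MBD-VP16, beside 1.31% of all genes. Of 56 interferon-stimulated genes 3 passed: IFITM1, a membrane protein that blocks virus entry (0.89 ± 0.08), HERC5 (0.72 ± 0.08) and USP18 (0.66 ± 0.08). IFITM1 was higher than vector with each regulator, by 0.54 with Aire and 1.43 with MBD-VP16. HERC5 lost the call without Aire replicate 2 and USP18 in 3 of those fits (adjusted p up to 0.0545 and 0.0681). Of 34 NF-kB genes ICAM1, an adhesion molecule of inflamed endothelium, passed (0.85 ± 0.10). Of 26 heat shock genes 2 passed, the testis chaperone HSPA2 (1.32 ± 0.10) and HSPA1L (0.81 ± 0.13, lost without any 1 array, adjusted p up to 0.128). Of 33 hypoxia and glycolysis genes 3 passed, BNIP3, a mitophagy receptor whose probes may cross-hybridise (0.90 ± 0.06), SLC2A3 (0.84 ± 0.07) and PFKFB3, which drives glycolysis (0.69 ± 0.09, lost in 5 fits without 1 array, adjusted p up to 0.0855).

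Of 39 collagen and matrix genes 3 passed, among them THBS2, thrombospondin 2 (0.77 ± 0.07), and TIMP2 (0.44 ± 0.06), which lost the call without any 1 array (adjusted p up to 0.0926). Of 27 imprinted genes DLX5, DLK1 (1.00 ± 0.15), PEG10 (0.50 ± 0.07) and TP73 (0.42 ± 0.06) passed, and the count was 1 to 3 without 1 array, with DLK1 and TP73 lost in all 6 such fits (adjusted p up to 0.0881 and 0.128) and PEG10 in 4 (0.0828). Of 55 replication-dependent histone genes H3C6 passed (0.87 ± 0.09). In limma's test 0 genes passed among 53 of DNA replication and mitosis, 31 of the unfolded protein response, 29 p53 targets, 27 of cholesterol synthesis, 71 ribosomal protein genes, 26 housekeeping genes, 22 transcription factors of small nuclear RNA genes, 15 of secretory granules, 13 metallothioneins and 13 BEX and TCEAL genes. Leaving out 1 array gave 1 p53 target in some fits and 0 for the other 9 lists. At an unadjusted p under 0.05, 12 genes of DNA replication and mitosis, 12 of the unfolded protein response and 8 of cholesterol synthesis were lower with MBD-VP16, beside 1067 of all 17769 genes (6.0%), and 2, 1 and 3 were higher. Of the 31 genes of the unfolded protein response 1 had a difference above 0, as did 7545 of all genes, and their median was -0.11.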

How the data were processed

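Total RNA of 9 cultures was measured on 1-colour expression arrays. The deposited series table holds log2 values, made by the authors with RMA per the submitters' processing notes (a method that corrects background, normalizes by quantiles and summarises probes). No genome build, scanner setting or RMA version was found in the labels and headers. Per the file headers, the authors' deposited comparison table also gives a fold change (a linear ratio with a sign), a p-value and an FDR per cluster. Its symbols annotated the clusters, its comparison was used as an alternative, and its 9 columns of per-array values were not used.

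Of 28829 transcript clusters, 3150 had no value. The other 25679, of which 18683 carried 1 symbol, 2535 several and 4461 none, entered one fit with lmFit and eBayes of limma 3.58.1 in R 4.3.3, on the 3 MBD-VP16 and 3 Aire arrays, without a replicate block. P-values were adjusted by the Benjamini-Hochberg method over all clusters. A gene with several clusters was read from the one with the highest mean over the 6 arrays. Values against vector come from a fit of all 9 arrays. The number of arrays limits the precision, and the median SE of a log2 difference was 0.0883. Tables and figures were made with Python 3.11.15, pandas 2.3.3 and matplotlib 3.10.9. The fit was tested on simulated data.

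Genes were named by rule: the 15 highest and 15 lowest differences without overlap between groups, up to 5 members past the threshold per list, AIRE and MBD1, genes near vector with 1 regulator, and genes with vector between both. Further limits applied to clusters of several or no symbols. Small RNAs and unnamed loci were counted only, and a few genes that met the rule are not reported here. The members and lists were chosen with earlier results of these data known, and genes and families outside the rule were chosen after their values were seen. Alternatives changed the normalization, filter, variance model, replicate block, clusters and arrays.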

Additional observations from a re-analysis of the deposited data

How the results depend on the processing

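No named feature reversed under any alternative run, and of 93 that passed, 54 kept the call without any 1 array and 50 under every setting. Leaving out 1 array gave 264 to 312 clusters, 136 to 154 genes and 66 to 74 genes at least 2-fold apart, against 433, 242 and 74. With the replicate number as a block, 242 clusters and 110 genes passed, all 110 genes higher with MBD-VP16, and 106 of them were among the 242 genes. Same-numbered arrays did not deviate together (correlations of 0.013, -0.055 and 0.002), so the numbers were not taken as a pairing, and 39 named features lost the call with the block. A filter on low signal gave 364 genes (39 lower), and a variance trend with intensity 724 clusters and 466 genes (80 lower); 222 and 234 of the 242 genes were among these. Without clusters open to cross-hybridisation 202 clusters and 180 genes passed, whereas 256 of the same 22949 clusters had passed in the main fit. With clusters of identical values entered once, 359 clusters passed. The cause of these shifts was not tested. The authors' deposited table calls 296 genes at an FDR under 0.05, and 210 of them passed here.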

Other observations

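Further developmental transcription factors outside the lists, chosen after their values were seen, were higher with MBD-VP16 in limma's test. ZIC1, of the dorsal neural tube, read 5.46, 5.20 and 5.30 with Aire and 7.45, 7.16 and 7.39 with MBD-VP16, a difference of 2.01 (adjusted p = 0.000127). HAND1, of heart and trophoblast, read 6.77, 6.88 and 6.79 against 8.31, 8.69 and 8.51 (1.69, adjusted p = 0.000348). The 2 groups were clear of each other for both genes. NR2E1 of neural stem cells was higher by 1.78, TBX5 of heart and forelimb by 1.69, PAX9 by 1.14 and OLIG2 by 0.96, and OLIG2 lost the call in 2 of the 6 fits without 1 array (adjusted p up to 0.0623). Regulators of immune cell fate, IRF4 and IRF8, were higher by 1.62 and 1.24.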
